A study of Homo sapiens with 21 samples.

Results

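RNA levels of 9 genes of the nuclear lamina and the inner nuclear membrane were followed in IMR90 cells, a long-established human fibroblast line from lung. The genes were taken by their symbols: the lamins LMNB1, LMNB2 and LMNA, the inner membrane proteins LBR, TMPO and EMD, the membrane-spanning proteins SUN1 and SUN2, and the chromatin-binding factor BANF1. They are 9 of the 16383 genes in the deposited table, and all 9 were among the 11579 genes that reached 10 normalised reads in 3 or more libraries. There were 21 poly(A) RNA libraries in 7 groups of 3. Proliferating cells were labelled as neither irradiated nor transfected. The other 6 groups were irradiated to make them senescent, given siRNA (5 nM) on the fourth day and again on day 7, counted from irradiation, and collected on day 10. Of these groups, NT3 and NT4 are controls named for their non-targeting siRNA, and the others received siRNA against CCND1 (cyclin D1), siRNA against the cyclin-dependent kinase CDK4, siRNA against its relative CDK6, or siRNA against CDK4 and CDK6 together, called the dual knockdown here. All cells carry the wild-type genotype per the labels. Irradiation and transfection cannot be told apart in any comparison with proliferating cells, and the labels name 1 siRNA reagent per target, so effects outside the target cannot be told apart from effects of the target.

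The nuclear lamina is a mesh of lamin filaments under the inner nuclear membrane that gives the nucleus its shape and holds silent chromatin at its edge. B-type lamins stay attached to the membrane through a lipid group, whereas lamins A and C, both made from LMNA, are also found in the nuclear interior. LBR ties B-type lamins and heterochromatin to the membrane, TMPO encodes the LAP2 proteins, and EMD encodes emerin. LAP2 and emerin carry a LEM domain that binds BANF1, a small DNA-bridging protein that helps the envelope reform after mitosis. SUN1 and SUN2 bind lamins inside the nucleus and nesprins outside it, which couples the nucleus to the cytoskeleton. Loss of LMNB1 is widely used as a marker of senescence.

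Depth ran from 12892442 to 21822152 reads per library over the listed genes, and the 10 most abundant genes took 7.16 to 9.61% of them. A value is a normalised read count, that is, reads divided by a size factor that the authors set for each library. The targeted RNAs were low where their siRNA was used: CCND1 was at 11.8% of the mean of NT3 and NT4 in its knockdown, CDK4 at 8.67% in its own and 9.41% in the dual knockdown, and CDK6 at 16.4% and 20.6%. All 9 fibroblast markers examined passed the filter, with summed values of 450387 to 861489 per library. Of 17 epithelial, endothelial and immune markers 7 passed it, with sums per library of 98.96 to 296.9, 1763 to 4509 and 9.61 to 80.1, and the defining markers KRT5, KRT14, SFTPC, CDH5 and PTPRC had at most 8 reads in any library. Others reached more, with MUC1 at up to 269 reads, EPCAM 46, CD14 39, CSF1R 33, VWF 31 and KDR 26. All 7 that passed the filter were higher in the senescent controls than in proliferating cells, where 32.6% of all tested genes were higher. Among them were KDR by 3.06, CD14 by 2.57 and VWF by 2.07 on the log2 scale. Markers this low can pass the filter through the irradiated groups alone, so for them the filter favoured this direction. The endothelial sum was highest with CDK6 knockdown (4092 to 4509) and in the dual knockdown (3441 to 3694), against 2058 to 3717 in the controls, and came almost wholly from TEK (up to 4878 reads). The part of these markers in the results was not tested. Replicate 3 of NT3 stood apart. The spread of its genes around their group means had an SD of 0.34 on the log2 scale, against 0.19 to 0.26 in the other 20 libraries, so results that it changes are also given without it. Nothing in the labels says that the 3 libraries of a group came from separate cultures. P-values therefore measure the spread between these samples, which may be technical.

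The 9 genes lie on 8 chromosomes of GRCh38 (RefSeq gene bounds). LMNB1 spans chr5:126776623-126837020 on the plus strand, LMNB2 chr19:2428166-2456959 on the minus strand and LMNA chr1:156082573-156140081 on the plus strand. LBR spans chr1:225401502-225428821 on the minus strand, TMPO chr12:98515573-98550351 on the plus strand and EMD chrX:154379295-154381523 on the plus strand. SUN1 spans chr7:815557-874934 on the plus strand, SUN2 chr22:38734734-38755998 on the minus strand and BANF1 chr11:66002503-66004149 on the plus strand. Counts were made per gene, so lamin A cannot be separated from lamin C, nor the LAP2 isoforms of TMPO from each other.

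The 250 bases before the first annotated start of each lamin gene and of TMPO are shown. They were chosen because these genes moved by very different amounts when the cells became senescent. The sequences are from RefSeq (GRCh38.p14), which held 14 start windows for 8 of the 9 genes, and run 5′ to 3′ on the strand of the gene. Capitals mark matches on either strand to 3 motifs known from promoters of cell cycle genes: E2F words (TTTCCCGC, TTTGGCGC, TTTCGCGC or TTTGCCGC), the cell cycle homology region (TTTGAA or TTCGAA) and the CCAAT box (CCAAT). These words do not overlap each other in the windows shown. Of 14016 windows of the same length before starts of tested genes, 4.03% held an E2F word, 10.7% a cell cycle homology word and 32.8% a CCAAT word. The last LMNB1 sequence is a 30-base stretch, bases 150 to 121 before a downstream annotated start, which lies within the gene bounds given above.
LMNB1, chr5:126776373-126776622, plus strand: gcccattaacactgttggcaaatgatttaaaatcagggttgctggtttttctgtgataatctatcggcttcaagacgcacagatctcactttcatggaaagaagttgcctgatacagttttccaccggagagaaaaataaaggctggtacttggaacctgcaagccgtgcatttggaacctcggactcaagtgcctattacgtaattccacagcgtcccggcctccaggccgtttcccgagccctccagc
LMNB1, chr5:126776986-126777015, plus strand: tgcctgctccccATTGGcccatggtagtca
LMNB2, chr19:2456960-2457209, minus strand: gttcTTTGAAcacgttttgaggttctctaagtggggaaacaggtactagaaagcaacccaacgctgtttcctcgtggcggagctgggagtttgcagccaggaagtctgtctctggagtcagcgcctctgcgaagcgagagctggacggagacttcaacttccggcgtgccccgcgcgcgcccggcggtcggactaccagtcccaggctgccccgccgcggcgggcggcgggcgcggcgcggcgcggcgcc
LMNA, chr1:156082323-156082572, plus strand: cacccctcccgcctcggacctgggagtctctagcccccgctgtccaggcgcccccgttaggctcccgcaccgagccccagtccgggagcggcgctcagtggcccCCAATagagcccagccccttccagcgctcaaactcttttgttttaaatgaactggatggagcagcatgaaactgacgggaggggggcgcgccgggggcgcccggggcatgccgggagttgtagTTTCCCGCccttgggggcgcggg
TMPO, chr12:98515323-98515572, plus strand: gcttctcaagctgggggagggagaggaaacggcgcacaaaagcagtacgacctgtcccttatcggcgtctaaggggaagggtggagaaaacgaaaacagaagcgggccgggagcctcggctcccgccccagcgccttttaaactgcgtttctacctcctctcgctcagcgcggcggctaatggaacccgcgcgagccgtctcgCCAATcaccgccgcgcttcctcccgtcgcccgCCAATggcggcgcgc

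A CCAAT word was found in 6 of the 14 windows, in LMNB1, LMNA, TMPO, EMD and SUN2. The TMPO windows, chr12:98515323-98515572 and chr12:98515340-98515589, overlap and hold the same CCAAT words, so these were counted more than once. LMNB2 and SUN2 each held a cell cycle homology word, and LMNA alone held an E2F word, 23 to 16 bases before its first start. The LBR window and the BANF1 window held none of these words. The matches are a description of these windows and do not show that a factor binds there.

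All 9 genes were lower in the irradiated controls (NT3 and NT4, 6 libraries) than in proliferating cells, from 1.42-fold for BANF1 to 16.2-fold for LMNB1. The 4 with the largest log2 falls were LMNB1, TMPO, LBR and LMNB2, and the other 5 fell by less than 1 on the log2 scale. In this comparison 68.6% of all tested genes passed the limma threshold of 0.05 (32.6% higher and 36.1% lower), so a call alone does not set these genes apart from the background. The median log2 fold change of the 9 genes was -0.90, beside -0.03 over all tested genes. In bulk RNA, fewer cells of a kind and less RNA per cell cannot be told apart.

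LMNB1 stood at 2459.6, 2540.1 and 2739 normalised reads in the 3 proliferating libraries. It stood at 172, 138 and 217 with NT3 and at 126, 171 and 141 with NT4. Every irradiated library was thus more than 10 times below every proliferating library, with 113 to 195 reads behind each control value. The group means were 2579.5 ± 144 (SD, n = 3) and 161 ± 33.3 (SD, n = 6), a log2 fold change of -4.02 (SE 0.15, limma adjusted p = 1.39e-15). LMNB2, the other B-type lamin, stood at 5539, 5371 and 5828 in proliferating cells and between 1294 and 1737 in the 6 control libraries. It fell by 1.86 on the log2 scale (SE 0.07, adjusted p = 6.25e-16), and its ranges did not overlap. LMNA stood at 17452, 17705 and 18100.0 in proliferating cells and at 8737 to 13902 in the controls, a log2 fold change of -0.72 (SE 0.06, adjusted p = 1.35e-10). That fall was -0.99 with NT3 alone and -0.46 with NT4 alone.

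Among the inner membrane genes, LBR stood at 1827, 1929 and 1858 in proliferating cells. Its 6 control values ran from 201 to 378, and the log2 fold change was -2.71 (SE 0.08, adjusted p = 2.03e-17). TMPO stood at 3870.2, 4406 and 4229.6 against 464 to 583, a log2 fold change of -2.96 (SE 0.08, adjusted p = 2.03e-17). Both genes thus kept 15.8 and 12.9% of their proliferating mean, between LMNB1 at 6.24% and LMNB2 at 27.7%. EMD kept 64.9% and BANF1 70.9%, with log2 fold changes of -0.63 (SE 0.07) and -0.51 (SE 0.08). SUN1 and SUN2 kept 55.3 and 53.6%, with log2 fold changes of -0.86 (SE 0.06) and -0.90 (SE 0.07). For none of the 9 genes did a control library reach the lowest proliferating library, and each fall passed the threshold in all 20 alternative analyses. The share of all tested genes without such overlap was not computed, here or in the comparisons below. A lack of overlap therefore does not set these genes apart from the background.

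**Figure D1:**
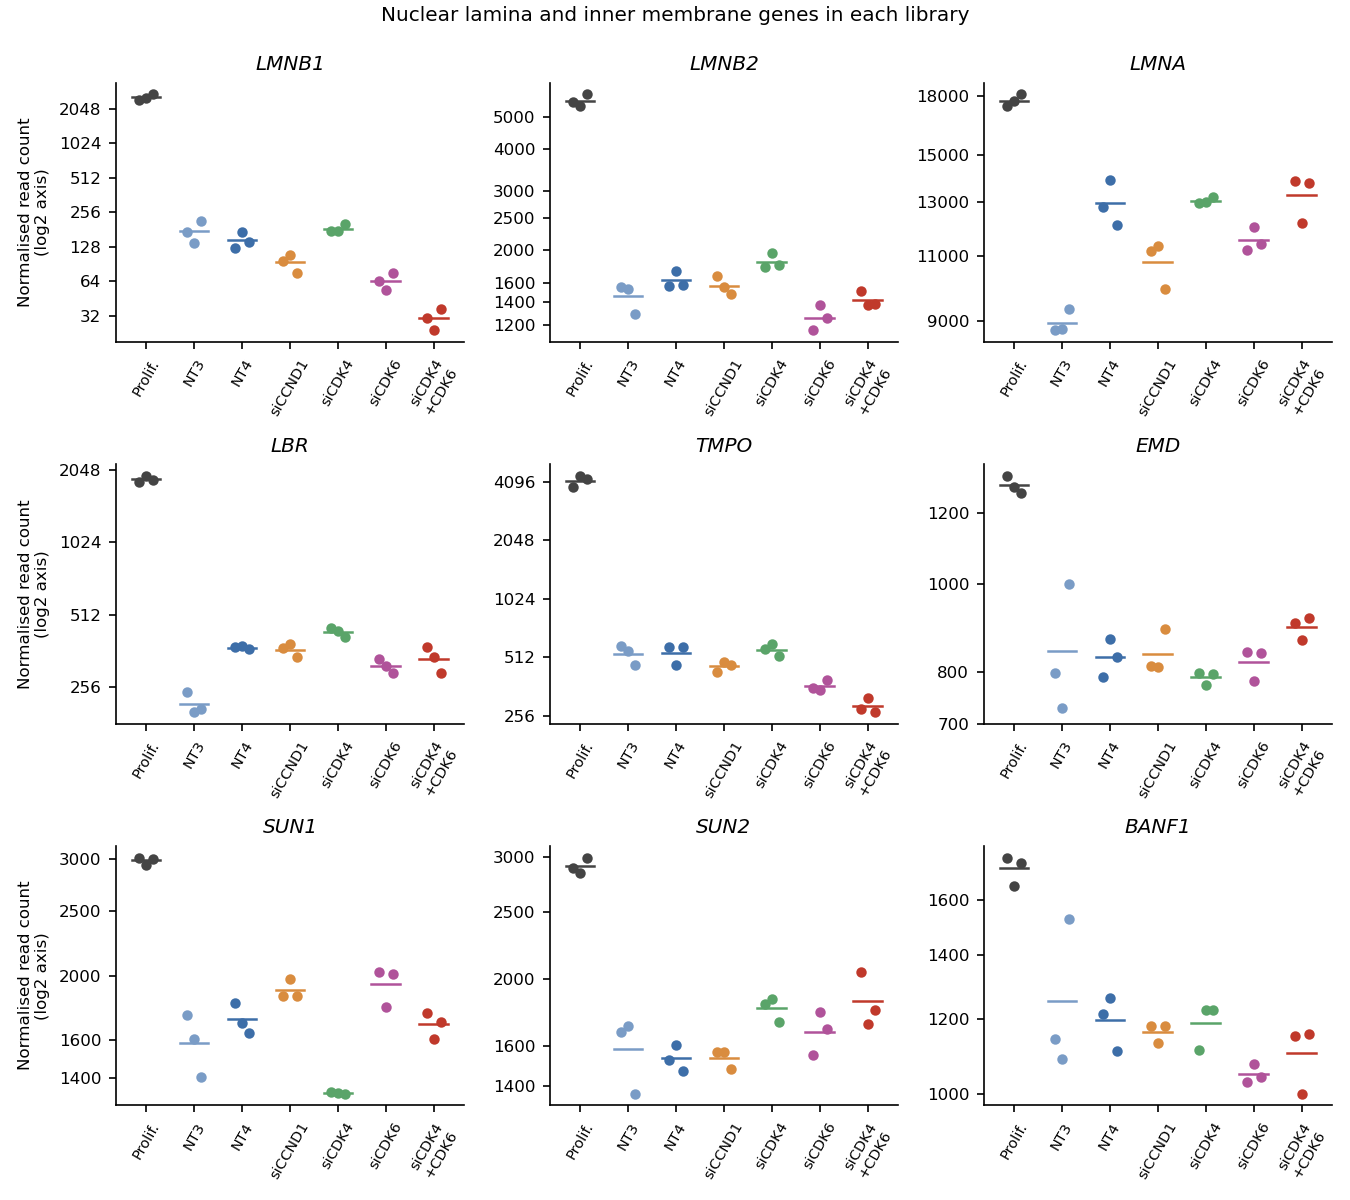
Normalised read count (log2 axis, a different range in each panel) of the 9 genes in each of the 21 libraries. Points are libraries, horizontal lines are group means (n = 3), and groups are proliferating cells, the 2 non-targeting siRNAs and the 4 knockdowns; LMNB1 falls from 2459.6 or more in proliferating libraries to 24.0 to 37.0 in the dual knockdown.

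Genes around the lamina were examined beside these 9. For the counts that follow, 36.1% of all tested genes were lower in the irradiated controls and 32.6% were higher. Of 28 tested genes of the nuclear pore, the channel that lies next to the lamina, 24 were lower in the irradiated controls, 0 were higher and 4 did not pass, with a median log2 fold change of -0.75. NDC1, which anchors the pore in the membrane, changed by -1.57 (SE 0.07) and NUP155, a scaffold protein, by -1.28 (SE 0.11). Of 10 tested heterochromatin partners 9 were lower and 0 higher (median -0.79), including the histone H3K9 methyltransferase SUV39H2 (-1.65, SE 0.11) and CBX5, which encodes HP1 alpha and binds LBR (-1.44, SE 0.09). The 11 tested other genes of the inner membrane and of its link to the cytoskeleton were mixed, with 5 higher and 4 lower (median 0.12). SYNE2, which encodes the giant nesprin-2 that SUN proteins hold, fell from 1161 ± 40.0 (SD, n = 3) to 132 ± 31.4 (SD, n = 6), a log2 fold change of -3.17 (SE 0.19). SYNE1, its nesprin-1 relative, rose by 0.59 (SE 0.15), but its NT3 libraries (1738 to 4064) overlapped the proliferating libraries (1798 to 1998). TM7SF2, a sterol reductase that resembles LBR, rose by 1.53 (SE 0.18). The largest rise and the deepest fall of that list therefore lay in a relative of LBR and in a partner of SUN1 and SUN2.

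Of 10 genes that process or assemble lamins, 2 rose, 3 fell and 5 did not pass. FNTA, a subunit of farnesyltransferase, rose by 0.39 (SE 0.08), and ZMPSTE24, the protease that matures prelamin A, rose by 0.30 (SE 0.05). ZMPSTE24 was also higher with NT4 than with NT3, by 0.43 (SE 0.06). VRK1, the kinase that releases BANF1 from DNA, changed by -1.77 (SE 0.14), and the protein kinase C gene PRKCA by -1.07 (SE 0.09). All 20 cell cycle genes examined were lower (median -2.58), on a list chosen with earlier results of these data known. MKI67, a marker of cycling cells, stood at 8163 ± 327 in proliferating cells and 665 ± 113 (SD, n = 6) in the controls. The part of cycling cells in the falls of LMNB1, TMPO and the other members was not tested.

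The 2 non-targeting siRNAs did not give the same level of LMNA and LBR. LMNA was higher with NT4 (12781, 13902 and 12095) than with NT3 (8737, 8761 and 9329), by 0.53 on the log2 scale (SE 0.06, limma adjusted p = 2.44e-06). LBR was higher with NT4 (375, 378 and 367) than with NT3 (244, 201 and 206), by 0.78 (SE 0.09, adjusted p = 1.30e-06). The libraries of the 2 controls did not overlap for either gene. In this comparison 27.8% of all tested genes passed the threshold (14.7% higher and 13.1% lower with NT4), and 2 of the 9 genes did. LMNB1 (-0.25, SE 0.18), LMNB2 (0.16, SE 0.08) and SUN1 (0.12, SE 0.07) did not pass, nor did TMPO, SUN2, EMD and BANF1, whose differences lay between -0.05 and 0.01. Without NT3 replicate 1 the difference of SUN1 passed (0.19, adjusted p = 0.0422). Every knockdown was therefore set against the mean of NT3 and NT4. Values of the 9 genes against NT3 or NT4 alone are given where they change a call. For the other genes such values are not given, although some also differed between the controls. With NT4 against NT3, ZMPSTE24 differed by 0.43 (SE 0.06), PRKCA by 0.37 (SE 0.10) and VRK1 by -0.48 (SE 0.16). CBX5 differed by 0.55 (SE 0.10), SUV39H2 by 0.49 (SE 0.12) and TM7SF2 by -0.72 (SE 0.21). The 4 knockdown comparisons share these 6 control libraries.

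CCND1 knockdown lowered LMNB1 below the senescent level. Its libraries stood at 96.8, 108.8 and 76.6, all below the lowest control library at 126, or 58.4% of the control mean (log2 fold change -0.76, SE 0.15, limma adjusted p = 0.000684). LBR was higher, at 371, 386 and 342 (0.36, SE 0.08, adjusted p = 0.00126), but these values overlapped NT4. Against NT3 alone the LBR difference was 0.75 (adjusted p = 1.40e-06) and against NT4 alone it was -0.03 (adjusted p = 0.867). SUN1 was also higher, at 1865, 1980.2 and 1866, above all control libraries (0.21, SE 0.06, adjusted p = 0.0110), whereas SUN2 was not (-0.02, SE 0.07). Thus 3 of the 9 genes passed, where 31% of all tested genes did (16.7% higher and 14.4% lower).

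TMPO stood at 431, 483 and 467 after CCND1 knockdown, a log2 fold change of -0.22 (SE 0.08) that did not pass (adjusted p = 0.0569). It passed without NT3 replicate 3 (-0.26, adjusted p = 0.00800) or without NT4 replicate 2 (-0.27, adjusted p = 0.0164). With DESeq2 in place of limma it passed too (-0.23, adjusted p = 0.0388). LMNB2, EMD, SUN2 and BANF1 differed from the controls by -0.06 to 0.03. LMNA differed by 0.01, but by 0.27 against NT3 alone (adjusted p = 0.00218) and by -0.26 against NT4 alone (adjusted p = 0.00609). The rise of SUN1 did not pass against NT4 alone (0.15, adjusted p = 0.145) or without CCND1 knockdown replicate 2 (0.18, adjusted p = 0.0703), nor after quantile normalization (0.15, adjusted p = 0.0578) or with only the compared groups fitted (adjusted p = 0.0739). Of the 20 cell cycle genes 18 fell (median -0.63) and MKI67 stood at 424 ± 7.996 (SD, n = 3). Of the 28 nuclear pore genes 6 fell and 0 rose, where 14.4% of all tested genes fell and 16.7% rose. NUP35 changed by -0.50 (SE 0.13) and NUP107 by -0.31 (SE 0.06). Among lamin-processing genes PRKCA (0.53, SE 0.09) and ZMPSTE24 (0.28, SE 0.05) were among 4 that rose. RCE1, the protease that trims farnesylated proteins, was the 1 that fell (-0.43, SE 0.10). With NT4 against NT3, ZMPSTE24 (0.43, SE 0.06) and PRKCA (0.37, SE 0.10) also differed, as did RCE1 (-0.41, SE 0.12).

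CDK4 knockdown did not lower LMNB1. Its libraries stood at 176, 176 and 202, within the control range (0.22, SE 0.15, limma adjusted p = 0.379), and TMPO at 565, 598 and 519 (0.07, SE 0.08, adjusted p = 0.664). LBR stood at 449, 435 and 414, above all 6 control libraries (0.60, SE 0.08, adjusted p = 1.29e-05). LMNB2, at 1786, 1967 and 1805, was also above all controls (0.26, SE 0.07, adjusted p = 0.00882). LMNA rose by 0.28 (SE 0.06, adjusted p = 0.00128) and SUN2 by 0.22 (SE 0.07, adjusted p = 0.0287).

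SUN1 alone fell after CDK4 knockdown among the 9 genes. Its libraries stood at 1336, 1331 and 1328, below the lowest control library at 1405 (-0.31, SE 0.06, limma adjusted p = 0.00109), while those of SUN2 stood at 1840.2, 1867 and 1732, above the highest at 1708. The fall of SUN1 passed in all 21 alternative analyses. Thus 5 of the 9 genes passed, where 16% of all tested genes did (8.46% higher and 7.55% lower), and the median log2 fold change of the 9 was 0.22 beside 0.00 over all tested genes. Against NT4 alone, LBR (0.21, adjusted p = 0.145), LMNA (0.01, adjusted p = 0.925) and LMNB2 (0.19, adjusted p = 0.136) did not pass. Without CDK4 knockdown replicate 2, LMNB2 (0.22, adjusted p = 0.0822) and SUN2 (0.20, adjusted p = 0.136) did not pass either, nor did SUN2 without CDK4 knockdown replicate 1 (adjusted p = 0.106) or NT4 replicate 3 (adjusted p = 0.0589). In all, the SUN2 call was lost in 6 of 21 alternative analyses, also against NT3 alone (0.20, adjusted p = 0.0616), with only the compared groups fitted (adjusted p = 0.125, where LMNB2 was lost too at 0.0646) and with a term for runs of library codes (adjusted p = 0.0532). Of the cell cycle genes 6 rose and 0 fell (median 0.28), with MKI67 at 988 ± 106.4 (SD, n = 3). NUP58, a protein of the central pore channel, rose by 0.62 (SE 0.09), 1 of 3 nuclear pore genes that rose.

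CDK6 knockdown lowered LMNB1, TMPO and LMNB2. LMNB1 stood at 65.1, 54.0 and 75.7, or 40.3% of the control mean, with no overlap (-1.29, SE 0.15, limma adjusted p = 8.22e-07). TMPO stood at 353, 346 and 393, or 67.7%, again with no overlap (-0.56, SE 0.08, adjusted p = 2.01e-05). LMNB2 stood at 1157, 1375 and 1255 (-0.29, SE 0.07, adjusted p = 0.00144), where the highest library overlapped the lowest of NT3. BANF1 fell by a smaller amount, to 1029, 1075 and 1042 (-0.21, SE 0.08, adjusted p = 0.0375). SUN1 rose, to 2024, 1791 and 2011 (0.24, SE 0.06, adjusted p = 0.00312), where CDK4 knockdown had lowered it, although its lowest library overlapped NT4.

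These are 5 of the 9 genes, where 41.9% of all tested genes passed (21.1% higher and 20.8% lower). LMNA (0.10, SE 0.06), SUN2 (0.11, SE 0.07), EMD (-0.02, SE 0.07) and LBR (0.14, SE 0.08) did not pass. LBR depended on the control, at 0.53 against NT3 alone (adjusted p = 6.15e-05) and -0.25 against NT4 alone (adjusted p = 0.0364). SUN1 did not pass against NT4 alone (0.17, adjusted p = 0.0593). The call of BANF1 was lost in 9 of 21 alternative analyses, among them NT4 as the only control (-0.19, adjusted p = 0.140), the removal of any single CDK6 knockdown library (adjusted p = 0.0637 to 0.113) and of NT4 replicate 1 or 2 (adjusted p = 0.0624 and 0.0766). LMNA depended on the control too, at 0.37 against NT3 alone (adjusted p = 7.8e-05) and -0.16 against NT4 alone (adjusted p = 0.0593), and it passed without NT3 replicate 3 (0.12, adjusted p = 0.0479).

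All 20 cell cycle genes fell after CDK6 knockdown (median -0.83), and MKI67 stood at 415 ± 57.4 (SD, n = 3). Of the 28 nuclear pore genes 6 fell and 1 rose, where 20.8% of all tested genes fell and 21.1% rose. NDC1 changed by -0.46 (SE 0.07) and NUP160 by -0.37 (SE 0.11). ICMT, the methyltransferase that finishes the lipid-anchored end of B-type lamins, fell by 0.72 on the log2 scale (SE 0.05, limma adjusted p = 1.66e-10). RCE1, which acts just before it, fell by 0.38 (SE 0.10), but was also lower with NT4 than with NT3 (-0.41, SE 0.12). PRKCA rose by 0.65 (SE 0.09). Of the other inner membrane genes 6 rose and 2 fell, with SYNE1 at 0.60 (SE 0.15) and SYNE2 at -0.51 (SE 0.19). SYNE1 and SYNE2 moved in opposite directions as they had on senescence, although the CDK6 knockdown libraries of both overlapped NT3. Of the heterochromatin partners 4 fell and 0 rose, with SUV39H1 at -0.35 (SE 0.12) and PRR14, which tethers HP1 to the lamina, at -0.34 (SE 0.09).

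The dual knockdown gave the lowest LMNB1 and TMPO levels of all groups. LMNB1 stood at 30.9, 24.0 and 37.0, from 28, 22 and 37 reads. That was 19.0% of the control mean and 1.19% of the proliferating mean, below every other library (-2.35, SE 0.15, limma adjusted p = 7.21e-11). TMPO stood at 278, 314 and 267, or 53.4% of the control mean, likewise below every other library (-0.90, SE 0.08, adjusted p = 2.18e-08). LMNB2 did not pass (-0.11, SE 0.07, adjusted p = 0.178), with values of 1509.9, 1377 and 1387 inside the control range. LMNA rose, to 13855, 12181 and 13769 (0.30, SE 0.06, adjusted p = 0.000137), and so did SUN2, to 2042, 1719 and 1802, above all control libraries (0.25, SE 0.07, adjusted p = 0.00478). LBR stood at 374, 341 and 293 (0.23, SE 0.08, adjusted p = 0.0190), and for LBR and LMNA these libraries overlapped the controls.

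These are 5 of the 9 genes, where 44% of all tested genes passed (22.5% higher and 21.5% lower). EMD (0.11, SE 0.07), SUN1 (0.04, SE 0.06) and BANF1 (-0.14, SE 0.08) did not pass. Against NT4 alone the differences of LMNA (0.04, adjusted p = 0.680) and LBR (-0.16, adjusted p = 0.177) did not pass, and LBR changed sign. LBR was also lost without dual knockdown replicate 1 (0.15, adjusted p = 0.170) or 2 (0.22, adjusted p = 0.0635) or with only the compared groups fitted (adjusted p = 0.0967), and SUN2 without dual knockdown replicate 1 (0.18, adjusted p = 0.0632). Without NT3 replicate 3, LMNB2 (-0.16, adjusted p = 0.0197) and EMD (0.17, adjusted p = 0.00648) passed, and BANF1 passed without NT3 replicate 2 (-0.19, adjusted p = 0.0439). LMNB2 also passed after quantile normalization (-0.17, adjusted p = 0.0326).

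**Figure D2:**
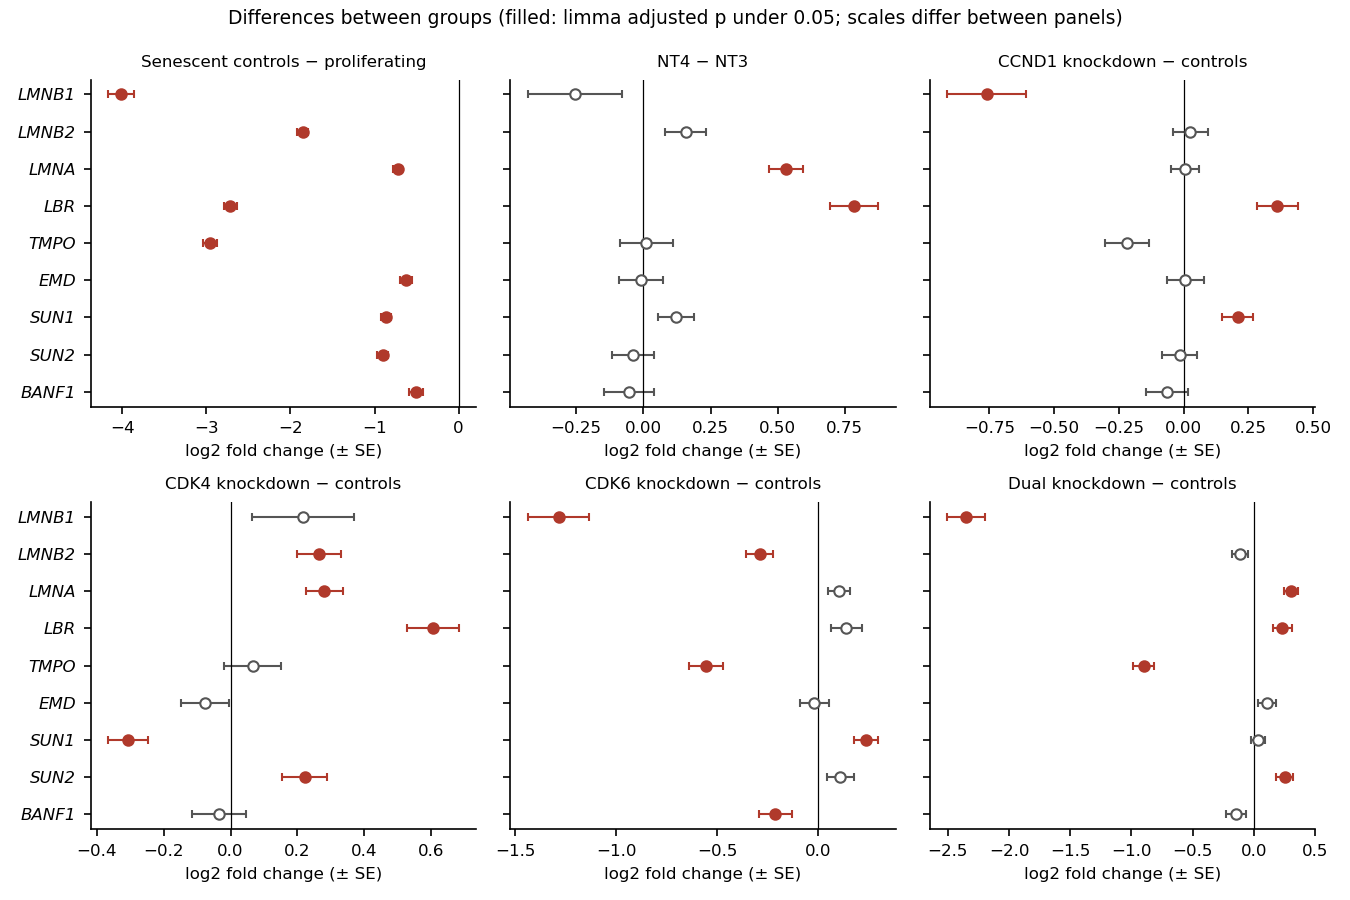
Log2 fold change (x axis, a different range in each panel) of the 9 genes in 6 comparisons, with bars of 1 SE from limma. Filled points passed an adjusted p of 0.05; all 9 are filled for the senescent controls, while LMNB1 is filled at -0.76, -1.29 and -2.35 in the CCND1, CDK6 and dual knockdowns and open at 0.22 in the CDK4 knockdown.

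All 20 cell cycle genes fell in the dual knockdown as well (median -2.17), and MKI67 stood at 98.5 ± 12.5 (SD, n = 3). MKI67 fell in the CCND1, CDK6 and dual knockdowns, where LMNB1 fell in each and TMPO in the latter pair. The part of cycling cells in these falls was not tested. Of the 28 nuclear pore genes 10 fell and 2 rose, where 21.5% of all tested genes fell and 22.5% rose. NUP155 changed by -0.56 (SE 0.11), NDC1 by -0.55 (SE 0.07) and NUP133, part of the outer ring, by 0.22 (SE 0.06). SYNE2 fell to 69.4 ± 19.5 (SD, n = 3), a log2 fold change of -0.92 (SE 0.19, limma adjusted p = 0.000399), and NEMP1, an inner membrane protein that supports nuclear stiffness, fell by 0.50 (SE 0.08). TMEM120A (0.59, SE 0.10) and SYNE1 (0.40, SE 0.15) rose. The rise of SYNE1 had a limma adjusted p of 0.0406, and its libraries (3611 to 4164) overlapped NT3 (1738 to 4064). VRK1 fell by 0.43 (SE 0.14) and ICMT by 0.22 (SE 0.05), while PRKCA (0.52, SE 0.09) and IFFO1, an intermediate filament protein that binds lamin A (0.34, SE 0.07), rose. Of the heterochromatin partners 2 rose and 3 fell, all by less than 0.25.

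The dual knockdown was then set against the CDK4 effect plus the CDK6 effect on the log2 scale. For LMNB1 the single effects of 0.22 and -1.29 add to -1.07, while the dual knockdown gave -2.35, a departure of -1.28 (SE 0.23, limma adjusted p = 0.00132) that passed in all 27 alternative analyses. For LBR the effects of 0.60 with CDK4 knockdown and 0.14 with CDK6 knockdown, which did not pass, add to 0.74, while the dual knockdown gave 0.23, a departure of -0.51 (SE 0.12, adjusted p = 0.0121). Against NT4 alone the departure of LBR was -0.12 (adjusted p = 0.729). These 2 of the 9 genes passed, where 6.35% of all tested genes did (2.63% higher and 3.71% lower).

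For TMPO the single effects add to -0.49, against -0.90 in the dual knockdown, a departure of -0.41 (SE 0.13) with an adjusted p of 0.0629. With NT3 alone it passed (-0.42, adjusted p = 0.0441) and with NT4 alone it did not (-0.40, adjusted p = 0.121). It also passed when any 1 NT3 library was left out (-0.36 to -0.44, adjusted p = 0.0349 to 0.0432) and without dual knockdown replicate 2 (-0.48, adjusted p = 0.0403). With DESeq2 in place of limma it passed as well (-0.42, adjusted p = 0.0397). The single effects of SUN1, -0.31 and 0.24, nearly cancelled at -0.07, and the dual knockdown gave 0.04 (departure 0.11, SE 0.09). Departures of LMNB2, SUN2 and BANF1 lay between -0.09 and 0.10. That of LMNA was -0.08 (SE 0.08), but -0.35 with NT3 alone (adjusted p = 0.0123) and 0.18 with NT4 alone (adjusted p = 0.314), and that of EMD was 0.21 (SE 0.11, adjusted p = 0.286). MKI67 departed by -2.64 (SE 0.19), as did 15 of the 20 cell cycle genes in the same direction (median -1.40).

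**Figure D3:**
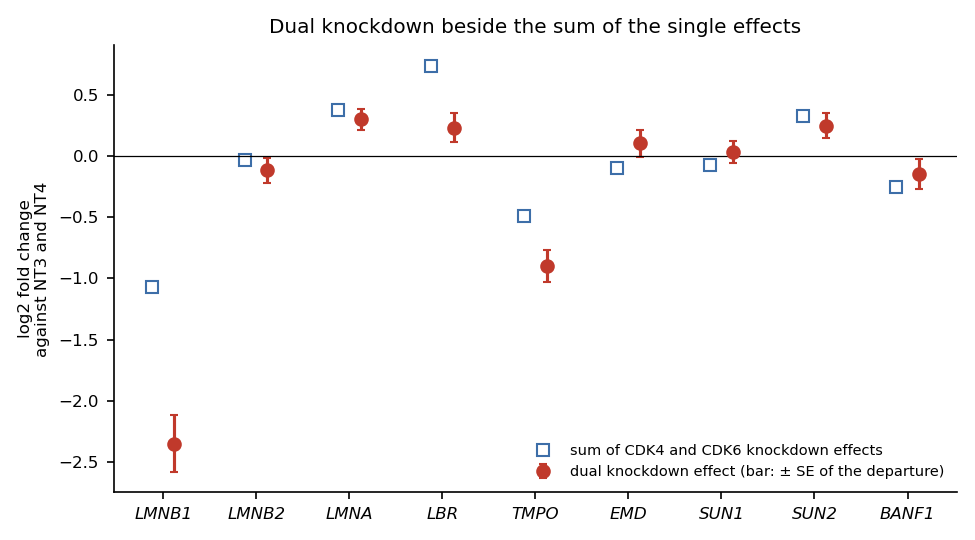
Log2 fold change against the mean of NT3 and NT4 (y axis) for the 9 genes (x axis): squares are the CDK4 plus CDK6 knockdown effects, circles the dual knockdown effect, and bars 1 SE of the difference between them. The circle minus the square is -1.28 for LMNB1 and -0.51 for LBR.

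Set against each other, CDK6 and CDK4 knockdown differed in 6 of the 9 genes, where 34.8% of all tested genes passed (17.5% higher and 17.3% lower). LMNB1 was lower with CDK6 knockdown (-1.50 on the log2 scale, SE 0.18, limma adjusted p = 8.18e-07), and TMPO (-0.62, SE 0.10), LMNB2 (-0.56, SE 0.08) and LBR (-0.47, SE 0.09) were lower too. For these 4 genes the libraries of the 2 knockdowns did not overlap, but the share of all tested genes without overlap was not computed. SUN1 was higher with CDK6 knockdown, at 1791 to 2024 against 1328 to 1336 (0.54, SE 0.07, adjusted p = 2.29e-06). LMNA was lower (-0.18, SE 0.06, adjusted p = 0.0352), a call lost when any CDK4 knockdown library or CDK6 knockdown replicate 1 or 3 was left out (adjusted p = 0.0683 to 0.121), without the filter (0.0534) or with a term for runs of library codes (0.0607). The fold changes between these 2 knockdowns use no control library, but the variance behind their SE and p-values was shared by all 7 groups. With only the compared groups fitted, BANF1 (-0.18, limma adjusted p = 0.146) passed as well (adjusted p = 0.0240).

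Against CDK6 knockdown alone, the dual knockdown was lower for LMNB1 (-1.07, SE 0.18, limma adjusted p = 0.000228) and TMPO (-0.34, SE 0.10, adjusted p = 0.0225) and higher for LMNA (0.20, SE 0.06, adjusted p = 0.0422), 3 of 9 genes where 13% of all tested genes passed (6.05% higher and 6.94% lower). The libraries did not overlap for any of these 3 genes, but here too the share of all tested genes without overlap was not computed. The call of TMPO was lost without CDK6 knockdown replicate 3 (-0.29, adjusted p = 0.116), dual knockdown replicate 1 (-0.32, adjusted p = 0.0772) or dual knockdown replicate 3 (-0.30, adjusted p = 0.103), and, narrowly, with a term for runs of library codes (adjusted p = 0.0502). The call of LMNA was lost in 7 of 16 alternative analyses, among them those without the same libraries or CDK6 knockdown replicate 1 (adjusted p = 0.121 to 0.163). SUN1, at -0.20 (adjusted p = 0.0589), passed in 4 of 16 alternative analyses, among them without CDK6 knockdown replicate 2 (-0.26, adjusted p = 0.0292). The others were DESeq2 in place of limma (adjusted p = 0.0274), only the compared groups fitted (0.0238) and quantile normalization (0.0275). Against CCND1 knockdown, the dual knockdown was lower for LMNB1 (-1.59, SE 0.18, adjusted p = 1.01e-06) and TMPO (-0.68, SE 0.10, adjusted p = 2.84e-05) and higher for LMNA (0.30, SE 0.06, adjusted p = 0.00181) and SUN2 (0.27, SE 0.08, adjusted p = 0.0184). That is 4 of 9, where 20.3% of all tested genes passed (9.12% higher and 11.2% lower). SUN2 was lost without CCND1 knockdown replicate 3 (0.24, adjusted p = 0.0774) or dual knockdown replicate 1 (0.19, adjusted p = 0.125). SUN1 (-0.17, limma adjusted p = 0.0816) passed with only the compared groups fitted (adjusted p = 0.02185).

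The order of the 7 groups differed between the genes below the proliferating group, which was highest for all 9. LMNB1 ran from CDK4 knockdown (185 ± 15.2) through NT3 (176 ± 39.6), NT4 (146 ± 23.1), CCND1 knockdown (94.1 ± 16.3) and CDK6 knockdown (65.0 ± 10.8) to the dual knockdown (30.7 ± 6.51; each SD, n = 3). Only the neighbours CDK4 knockdown and NT3, and NT3 and NT4, overlapped in this order, and the 6 irradiated groups spanned 6.02-fold. TMPO had the same order except that NT4 stood before NT3, with a span of 1.96-fold and overlap from CDK4 knockdown through CCND1 knockdown. LBR spanned 1.99-fold, from CDK4 knockdown (433 ± 17.5) down to NT3 (217 ± 23.3), with the dual knockdown (336 ± 40.6) and CDK6 knockdown (313 ± 21.9) between and overlapping.

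LMNA was lowest with NT3 (8942 ± 335) and highest among irradiated groups in the dual knockdown (13268 ± 943), a span of 1.48-fold in which CDK4 knockdown and NT4 overlapped the dual knockdown. LMNB2 spanned 1.47-fold, from CDK4 knockdown (1853 ± 99.4) to CDK6 knockdown (1263 ± 109.2). SUN1 spanned 1.46-fold, from CDK6 knockdown (1942 ± 131) to CDK4 knockdown (1332 ± 4.29), whereas SUN2 spanned 1.21-fold. EMD and BANF1 spanned 1.14-fold and 1.19-fold, and 5 of their 6 neighbouring pairs overlapped, as for SUN2. In NT3 replicate 3 EMD (999.97) and BANF1 (1529) stood above the other 17 irradiated libraries.

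Per kilobase of merged exon (GENCODE), LMNA had the highest level in proliferating cells at 2181 ± 40.1 (SD, n = 3), ahead of BANF1 at 1154 ± 41.8 and LMNB2 at 1034 ± 42.9. LMNB1 followed at 710.0 ± 39.6, then EMD at 646 ± 14.8, TMPO at 491 ± 32.1, SUN2 at 348 ± 8.89, LBR at 328 ± 9.16 and SUN1 at 252 ± 3.23. In the dual knockdown LMNA was still the highest at 1629.8 ± 116 (SD, n = 3), and LMNB1 was the lowest at 8.44 ± 1.79 per kilobase. Merged exon length understates the level of genes with long alternative exons.

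The lamin mix shifted away from LMNB1. Within each library, LMNB1 had 14.5 ± 0.541 reads per 100 LMNA reads in proliferating cells (SD, n = 3), 1.96 ± 0.375 with NT3 and 1.13 ± 0.129 with NT4. It had 1.42 ± 0.102 with CDK4 knockdown, 0.867 ± 0.0945 with CCND1 knockdown, 0.565 ± 0.107 with CDK6 knockdown and 0.230 ± 0.0364 in the dual knockdown. No library outside the dual knockdown was as low as its highest library, at 0.269. These ratios do not depend on the size factors. Against LMNB2, LMNB1 had 46.2 ± 1.59 reads per 100 in proliferating cells, 12.3 ± 4.04 with NT3, 8.94 ± 0.923 with NT4 and 2.15 ± 0.472 in the dual knockdown. LMNB2 itself went from 31.4 ± 0.973 reads per 100 LMNA reads in proliferating cells to 10.8 ± 0.625 in the dual knockdown and 10.9 ± 0.555 with CDK6 knockdown.

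**Figure D4:**
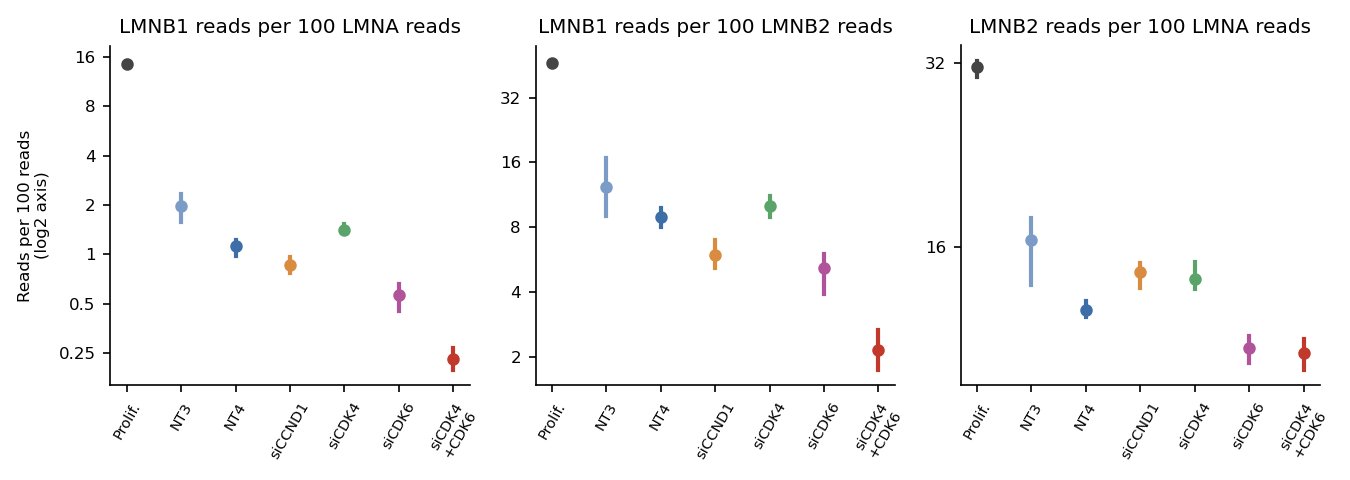
Reads of a lamin gene per 100 reads of another within the same library (y axis, log2, a different range in each panel) in the 7 groups (x axis); points are means of 3 libraries and bars run from the lowest to the highest library. LMNB1 per 100 LMNA reads drops from 14.5 in proliferating cells to 0.230 in the dual knockdown.

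The SUN genes changed balance with CDK4 knockdown. SUN1 had 102.7 ± 2.03 reads per 100 SUN2 reads in proliferating cells (SD, n = 3), 100.4 ± 5.62 with NT3 and 112.1 ± 6.67 with NT4. It had 73.5 ± 2.80 with CDK4 knockdown, 91.3 ± 4.50 in the dual knockdown, 117 ± 15.3 with CDK6 knockdown and 124 ± 4.03 with CCND1 knockdown. The CDK4 knockdown libraries, at 71.3 to 76.7, lay below all others.

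Across the 7 group means, the genes most like LMNB1 were SAPCD2, the kinetochore gene NUF2 and CENPA, the centromeric histone, by root mean square differences of 0.19, 0.24 and 0.27 on the log2 scale after centring each gene. For TMPO they were UHRF1 (0.10), which reads hemimethylated DNA, the condensin gene SMC4 (0.13) and SYNE2 (0.13). For LBR they were PCOLCE (0.16), an enhancer of collagen processing, C21orf58 (0.19) and GRPR (0.22), a bombesin receptor. Among the 9 genes themselves, TMPO was nearest to LMNB1 (0.74), and EMD and BANF1 were the closest pair (0.10). LBR was nearer to LMNB2 (0.32) than to TMPO (0.49) or LMNB1 (1.18). These distances describe 7 group means and carry no test. In the dual knockdown SAPCD2, NUF2 and CENPA were near the floor, with mean log2(value + 1) of 2.66, 3.78 and 2.99. The pseudocount of 1 compresses differences at such levels.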

How the data were processed

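RNA from 21 IMR90 libraries was analysed from the authors' deposited table. Its values, a signal called normalised counts per the file headers, were whole multiples of a step for each library, so they are reads divided by a size factor, and 100% of values gave whole reads within 0.01. The submitters' processing notes name Trimmomatic 0.38.1, HISAT2 2.2.1, featureCounts 2.0.3, FastQC 0.74, MultiQC, DESeq2 2.11.40.8 and hg38. Their roles, the annotation, strandedness and the handling of reads shared by similar genes (pseudogene copies, for example) are not given in the sources used here.

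Tests covered genes that reached 10 in 3 or more libraries. Values were put on a log2(value + 1) scale (pseudocount 1), and limma 3.58.1, run in R 4.3.3, was applied to them (1 mean per group, trended variance shared by all 7 groups). Fold changes are on that scale, which understates low genes. Tests were two-sided, with Benjamini-Hochberg adjustment over all tested genes in each of 10 comparisons and a threshold of 0.05. The script was tested on simulated data. With edgeR 4.0.16 on the recovered reads, 7984 genes passed for senescent controls, 3227 for NT4 against NT3, 3617, 1934, 4922 and 5081 for the CCND1, CDK4, CDK6 and dual knockdowns, and 765 for the departure from the sum. With DESeq2 1.42.0 these were 7996, 3387, 3703, 2089, 5023, 5096 and 996, and with limma 7945, 3216, 3594, 1854, 4853, 5094 and 735.

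Groups follow the labels, and controls are named as in the sample titles. Replicate numbers follow column order and serve as names only. The 9 genes and all gene lists were chosen with earlier results of these data known. From the lists, the genes named are at most 2 per direction, list and comparison with the largest change past the threshold, plus the targeted genes, MKI67 and the 3 nearest patterns of LMNB1, LBR and TMPO. The lists held 30 nuclear pore genes (28 tested), 16 other inner membrane genes (11), 11 heterochromatin partners (10), 10 lamin-processing genes (10), 20 cell cycle genes (20), and 9 fibroblast, 6 epithelial, 5 endothelial and 6 immune markers. Sequences and gene bounds come from RefSeq, and strands of the genes and exon lengths from GENCODE.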

Additional observations from a re-analysis of the deposited data

Results flagged for a closer look

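LMNB1 in the dual knockdown departed from the CDK4 effect plus the CDK6 effect by -1.28 on the log2 scale (SE 0.23, limma adjusted p = 0.00132). This was a test of the difference between the effect of the CDK4 siRNA with and without the CDK6 siRNA. LBR differed in the same test by -0.51 (SE 0.12, adjusted p = 0.0121), and by -0.12 (adjusted p = 0.729) with NT4 as the only control.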

How the results depend on the processing

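Of 1755 member values under the alternatives, 1636 kept their direction and side of the threshold. Leaving aside sign changes, 51 lost the call and 25 gained it. The sign changed in 43, with NT4 as the only control (9), with quantile normalization (5) or with a library left out (29). In 39 of these neither value passed, and the main value lay between -0.08 and 0.10. In the other 4 sign changes, all with NT4 as the only control, a value that passed was involved. They were LMNA (-0.26) and LBR (-0.029) after CCND1 knockdown, LBR after CDK6 knockdown (-0.25) and LBR in the dual knockdown (-0.16). Of the 44 calls, 28 were kept in every alternative run. With NT4 alone, 2 genes passed instead of 5 for CDK4 knockdown, 3 instead of 5 for the dual knockdown and 1 instead of 2 for the departure from the sum, which gave 4 with NT3 alone. Fitting only the compared groups gave 3 for CDK4 knockdown. A term for runs of library codes, each holding 1 library of every irradiated group and chosen after seeing the data, ended 5 member calls and gave 1 instead of 3 for dual against CDK6 knockdown. Leaving out a library gave 9 genes each time for senescent controls, 2 to 3 for NT4 against NT3, 2 to 4 for CCND1, 3 to 5 for CDK4, 4 to 6 for CDK6 and 3 to 7 for dual knockdown, 2 to 3 for the departure, 5 to 6 for CDK6 against CDK4 knockdown, 1 to 4 for dual against CDK6 knockdown and 3 to 4 for dual against CCND1 knockdown. The cause was not tested. Median centring moved the median log2 fold change on senescence from -0.03 to 0.09 and the calls from 3769 higher and 4176 lower to 4614 and 3355, with all 9 genes still lower. Over all tested genes, counts moved by more than 1.5 times in these cases. Fitting only the compared groups gave 955 calls instead of 3216 for NT4 against NT3, 2269 instead of 3594 for CCND1 knockdown, 787 instead of 1854 for CDK4 knockdown, 394 instead of 735 for the departure and 2434 instead of 1504 for dual against CDK6 knockdown. NT4 alone gave 2235 for CCND1 knockdown and 455 for the departure, and NT3 alone gave 2962 for CDK4 knockdown and 1899 for the departure. Leaving out a library gave 1061 and 1175 for CDK4 knockdown (its replicates 2 and 1), 937 for dual against CDK6 knockdown (CDK6 knockdown replicate 3) and 442 to 1436 for the departure. Depth limits LMNB1 in the dual knockdown, at 22 to 37 reads. No paired analysis was possible because the table's columns carry library codes and no replicate numbers, and nothing says that a run of codes marks a shared culture or day. Same-run libraries had a median correlation of deviations of 0.04 and others -0.02.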
